A study of Mus musculus with 23 samples.

Results

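The cytochrome P450 genes of families 1 to 4 were followed through RNA-seq and ribosome profiling of mouse intestinal organoids and of the mouse small intestine. A gene was taken as a member when its GENCODE vM21 symbol had the form Cyp, a family number from 1 to 4, a subfamily letter and a gene number, and when its estimated read counts summed to at least 50 over the 23 libraries. This gave 53 members of 22350 genes, out of 76 genes with such a symbol. Members were chosen by this summed count and not by a difference between groups. A gene could still pass through the reads of 1 group or tissue alone. Among others, *Cyp3a16* passed through SCe RNA, and *Cyp4f18* and *Cyp4f37* through the mice. Just inside the limit were *Cyp2a12* with 58.5 reads in all, *Cyp2d40* with 67.4 and *Cyp3a16* with 68.8, and just outside it were *Cyp2b9* with 41.7, *Cyp4a29* with 27 and *Cyp2c69* with 21.6. All groups were of strain C57BL/6. WT organoids and stem cell enriched (SCe) organoids had the genotype VillinCre.ERT2.RPL22.HA, and the SCe cultures differed from WT by 10 µM CHIR 99021, an inhibitor of GSK3, and 1.5 mM valproic acid, an inhibitor of histone deacetylases, in the ENR medium (EGF, Noggin and R-spondin). *Rptor* encodes Raptor, a subunit of mTORC1, and Villin drives the tamoxifen-dependent Cre throughout the intestinal epithelium. The *Rptor* fl/fl organoids of the RNA-seq were VillinCre.ERT2.Rptor.fl/fl and carried no HA-tagged RPL22, while those of the Ribo-seq were VillinCre.ERT2.Rptor.fl/fl.RPL22.HA. WT mice had the genotype Lgr5Cre.ERT2.RPL22.HA. They were compared with mice that were Lgr5Cre.ERT2.Rptor.fl/fl.RPL22.HA, and in both the *Lgr5* promoter limits Cre to stem cells. The labels call the mice, the WT organoids and the *Rptor* fl/fl organoids untreated, whereas the study's methods describe tamoxifen induction of the deletion. Their age is not given in the labels. RNA-seq covered 2 organoid lines of WT and 2 of *Rptor* fl/fl, each with 2 technical libraries that were summed here, and 3 SCe cultures. Ribo-seq, made from ribosomes pulled down by the tag, covered 3 *Rptor* fl/fl and 3 SCe organoid cultures and 3 mice of each genotype.

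Cytochromes P450 are heme enzymes of the endoplasmic reticulum that insert an oxygen atom into their substrates, with electrons passed on from the reductase Por. Enzymes of families 1 to 3 oxidise foreign compounds, steroids and bile acids, and several of the 2C and 2J enzymes also form epoxides of arachidonic acid. Enzymes of family 4 mostly hydroxylate the end of fatty acid chains. In the small intestine these enzymes are found chiefly in villus enterocytes, and their genes are known targets of the receptors AhR (family 1), CAR and PXR (2B, 2C and 3A) and PPARα (4A).

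The 53 members comprised 2 genes of family 1, 30 of family 2, 7 of family 3 and 14 of family 4. Most lie in tandem clusters. On mm10, the 11 members of subfamily 2C lie on chromosome 19 between 39007019 and 44029208, the 6 of 2D on chromosome 15 between 82370527 and 82794294, and 8 of the 9 of 4F on chromosome 17 between 32452723 and 32947402. Such neighbours are close copies. Translated from the GENCODE coding sequences, 8 pairs of members were at least 90% identical in protein, led by *Cyp2c67* and *Cyp2c68* at 95.1%, *Cyp3a25* and *Cyp3a59* at 95%, and *Cyp4a10* and *Cyp4a31* at 94.5%. *Cyp2c65* and *Cyp2c66*, the members with the most RNA in WT organoids, were 93.7% identical. In 32 members at least 10% of the 31-base words of the coding sequence also occurred in another gene, so that the split of reads among them rests on the authors' Salmon estimate and is uncertain. In 10 members, among them *Cyp1b1*, *Cyp2e1*, *Cyp2s1*, *Cyp2w1*, *Cyp4b1* and *Cyp4x1*, no such word was shared. The heme-binding loop with the pattern FxxGxxxCxG was found in 51 of the 53 translated proteins, which were between 338 and 546 residues long.

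Assigned reads ranged from 27439459 to 67598878 for a line or culture in RNA-seq, from 1106178 to 8257457 in organoid Ribo-seq and from 772077 to 8238388 in the mice. A count of 0 therefore allows up to 0.10 CPM (counts scaled to library size) in the shallowest RNA-seq unit but up to 2.57 CPM in the shallowest organoid Ribo-seq library and 3.79 CPM in the shallowest mouse library, counting error only. CPM is given throughout on TMM-scaled library sizes within each assay. *Rptor* itself had 51.5 and 47.9 CPM in WT RNA and 14.8 and 15.5 CPM in *Rptor* fl/fl RNA (log2 fold change −1.71 ± 0.08 SE, adjusted p = 0.00516, edgeR quasi-likelihood test with Benjamini-Hochberg adjustment, as for all adjusted p-values here). In footprints, the organoid libraries labelled *Rptor* fl/fl had 17.3, 18.7 and 16.0 CPM of *Rptor* against 15.2, 41.9 and 21.0 in SCe (adjusted p = 0.318), and the mice labelled *Rptor* fl/fl 32.6, 34.4 and 36.9 against 41.7, 39.7 and 44.7 (adjusted p = 0.150). Directions drawn from those footprints are therefore given for the libraries as labelled. The mouse libraries held 61194 to 70699 CPM of 17 enterocyte markers, 3658 to 4035 CPM of 10 immune cell markers and 482 to 787 CPM of 11 stem cell markers, with *Lgr5* itself at 6.32 to 45.8 CPM. In organoids the immune sum was at most 6.33 CPM. A list of 7 fibroblast markers summed to 69.8 to 115 CPM in SCe RNA and 143 to 810 CPM in SCe footprints, against 1.45 to 9.81 CPM in the other organoid groups, and nearly all of it was *Vim*, while *Col3a1* and *Lum* were at 0 in SCe. Whether the cell makeup had a part in the P450 levels was not tested. In such bulk samples, fewer cells of a type and less RNA per cell cannot be told apart. The labels do not say that all organoid libraries of a group came from separate animals, so the p-values measure the spread between these samples only.

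Genes were compared with each other only on a length-scaled level, which is the read count divided by the effective length and scaled to the same sum over all genes in every sample. In WT organoid RNA the members summed to 2698 ± 77.8 (SD, n = 2 lines) on this scale, or 0.270% of the total, in *Rptor* fl/fl RNA to 1894 ± 389 (n = 2) and in SCe RNA to 1053 ± 462 (n = 3). The WT sum was carried by subfamilies 2C and 2B. *Cyp2c66* stood at 469 ± 54.8, *Cyp2c65* at 446 ± 75.0, *Cyp2b10*, the classical phenobarbital-inducible CAR target, at 325 ± 0.817, *Cyp2c29*, an arachidonate epoxygenase, at 276 ± 43.4 and *Cyp2c55* at 164 ± 53.8, together 62.3% of the summed level. *Cyp2c66* and *Cyp2c65* did not differ beyond the spread of the lines. In *Rptor* fl/fl RNA the leading members were *Cyp2c65* at 365 ± 48.2, *Cyp2c66* at 268 ± 55.6, *Cyp2j6* at 152 ± 38.1, *Cyp3a13* at 146 ± 30.7 and *Cyp2d26* at 137 ± 44.4, and the last 3 did not differ beyond their spread. In SCe RNA *Cyp2c55* led at 290 ± 107, ahead of *Cyp2c65* at 147 ± 29.5, *Cyp2j6* at 82.0 ± 32.4, *Cyp3a11* at 62.7 ± 51.1 and *Cyp2b10* at 58.0 ± 50.9.

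Another set of members led in the mice. On the length-scaled level of footprints, WT mice had *Cyp4f14*, a fatty acid hydroxylase, at 532 ± 71.9 (SD, n = 3), *Cyp3a13*, a 3A enzyme known from the gut, at 499 ± 11.3, *Cyp4v3*, a fatty acid hydroxylase, at 305 ± 12.5, *Cyp3a11*, the main PXR-inducible enzyme of mouse liver and gut, at 293 ± 10.3 and *Cyp3a25* at 196 ± 32.3. In the mice labelled *Rptor* fl/fl the leading members were *Cyp3a13* at 596 ± 61.4, *Cyp4f14* at 542 ± 26.1, *Cyp3a11* at 470 ± 59.1, *Cyp4v3* at 305 ± 2.11 and *Cyp3a25* at 205 ± 37.8. *Cyp2d26*, at 194 ± 17.5 in WT mice and 195 ± 19.2 in the others, did not differ from *Cyp3a25* beyond the spread. Summed over members the level was 2804 ± 104 in WT mice and 3099 ± 250 in mice labelled *Rptor* fl/fl. In organoid footprints the sum was 699 ± 33.0 in the *Rptor* fl/fl-labelled libraries, led by *Cyp2c66* at 178 ± 24.3, *Cyp2c65* at 92.6 ± 15.3, *Cyp2d26* at 88.3 ± 28.1, *Cyp2j6* at 57.3 ± 1.25 and *Cyp4f16* at 44.2 ± 21.1. In SCe footprints the sum was 327 ± 197, led by *Cyp2c55* at 92.9 ± 58.5, *Cyp2j6* at 39.2 ± 20.9, *Cyp2c65* at 33.3 ± 18.8, *Cyp2d26* at 21.2 ± 17.7 and *Cyp2c68* at 15.9 ± 11.2. The effective length in the deposited Ribo-seq files assumes fragments far longer than footprints. With the entry length in its place, an alternative chosen after seeing the data, *Cyp2c65* led the *Rptor* fl/fl-labelled libraries at 250 ± 39.1, followed by *Cyp2j6* at 156 ± 5.53 and *Cyp2c66* at 153 ± 9.63, and *Cyp4f16* was no longer among the 5 highest. In WT mice *Cyp2d26* then stood at 338 ± 30.0 and *Cyp3a25* at 304 ± 26.9. In the mice labelled *Rptor* fl/fl they stood at 304 ± 11.0 and 325 ± 48.8. In SCe footprints *Cyp3a13*, at 34.4 ± 15.9, took the place of *Cyp2d26*, at 33.0 ± 23.8, within their spread.

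**Figure D1:**
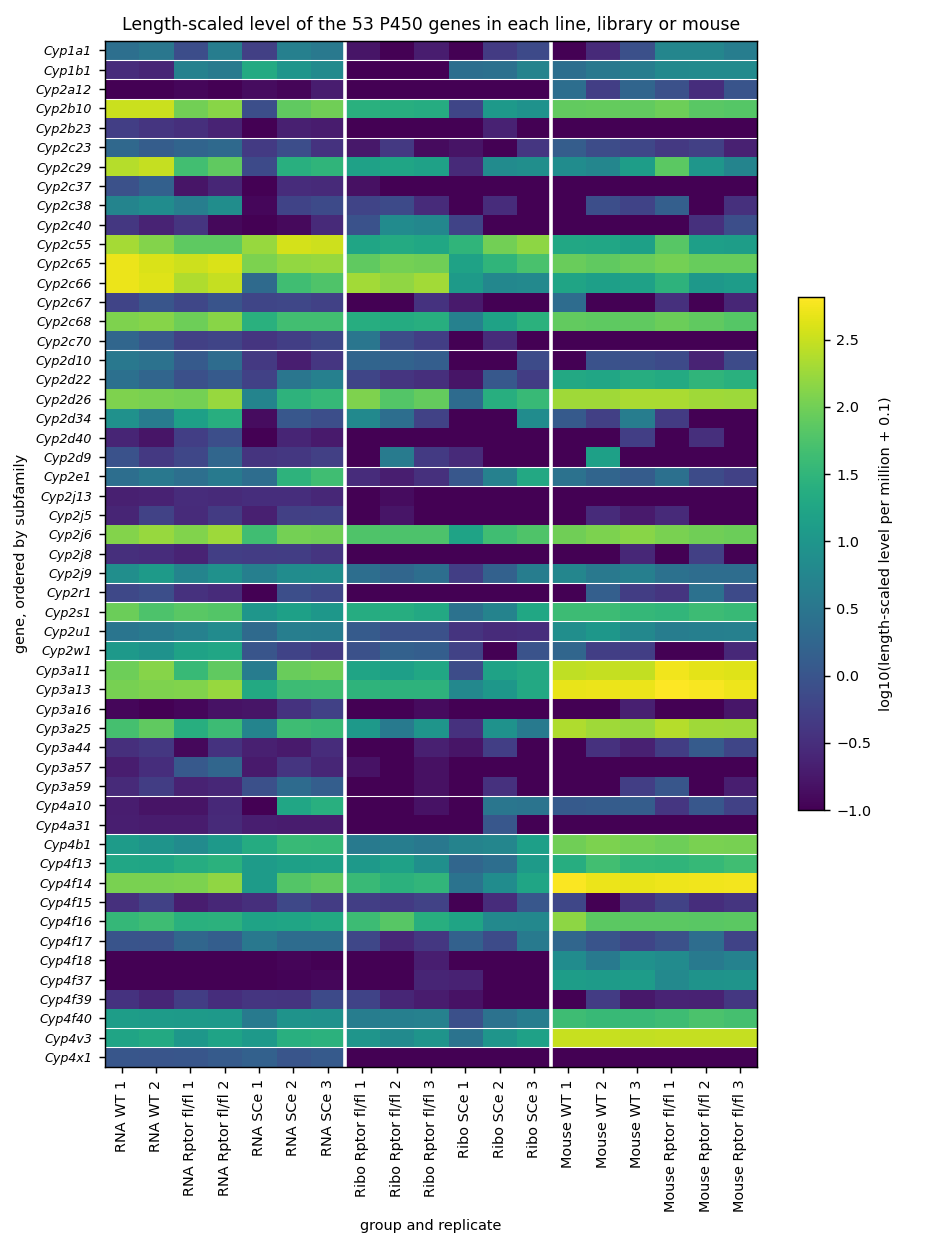
Length-scaled level of the 53 members (rows, ordered by subfamily) in each organoid line, library or mouse (columns, by assay and group), as log10 of the level plus 0.1, from dark (low) to yellow (high). *Cyp2c66*, *Cyp2c65*, *Cyp2b10* and *Cyp2c29* are brightest in WT organoid RNA, where *Cyp2c66* averaged 469, and *Cyp2c55* is brightest in SCe RNA. *Cyp3a11*, *Cyp3a13*, *Cyp3a25*, *Cyp4f14* and *Cyp4v3* are brightest in the mice, where *Cyp4f14* averaged 532 in WT, and *Cyp2d26* is level with *Cyp3a25* there.

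At least 10 reads in every sample of a group were found for 44 of the 53 members in WT RNA, 40 in *Rptor* fl/fl RNA, 33 in SCe RNA, 25 in organoid footprints labelled *Rptor* fl/fl, 17 in SCe footprints, 23 in WT mice and 25 in mice labelled *Rptor* fl/fl. Some members were seen in 1 assay or tissue only. *Cyp4x1*, a brain-enriched P450 of unknown substrate, had 117 to 229 reads in each RNA-seq unit and no footprint in any of the 12 Ribo-seq libraries. *Cyp4f18*, a leukotriene hydroxylase of myeloid cells, had 8.22 to 16.4 CPM in the 6 mice and at most 1 read in any organoid sample. *Cyp4f37* had 14.8 to 32.9 CPM in the mice and at most 6 reads in any organoid sample. *Cyp4f18* and *Cyp4f37* passed the member limit only through their mouse reads, and *Cyp4x1* only through RNA-seq. The contrasts of *Cyp4x1*, *Cyp4f18* and *Cyp4f37* therefore describe these genes alone and are no result about the P450 genes as a set. *Cyp4f37* shares 47.8% of its 31-base words, mostly with *Cyp4f16*. *Cyp2c37*, *Cyp2c70*, *Cyp2b23* and *Cyp3a57* had no footprint in the 6 mice. Their RNA reached 90, 55, 35 and 130 reads, in that order, in the RNA-seq units of organoids. For *Cyp2c37*, *Cyp2b23* and *Cyp3a57* this is a contrast of assays and not of tissues, as no organoid Ribo-seq library held over 2 of their footprints. Only *Cyp2c70* had more, with 16 to 21 footprints per *Rptor* fl/fl-labelled organoid library and at most 1 in SCe.

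SCe culture 1 stood apart from SCe cultures 2 and 3 in most members. Its CPM was under 10% of the mean of the other cultures in 13 of the 48 members compared in RNA, against 3.00% of 14909 genes, and the median ratio was 0.347 over members and 0.995 over all genes. *Cyp2b10* had 0.836 CPM in SCe 1 and 117 and 145 in SCe 2 and 3. *Cyp4a10*, the PPARα target that hydroxylates fatty acids, had no read in SCe 1 and 31.5 and 41.6 CPM in the others. *Cyp3a11* had 5.75 CPM against 170 and 181, and *Cyp2e1*, which oxidises ethanol, 2.37 against 43.3 and 62.3. The family 1 gene *Cyp1b1* went the other way, with 65.2 CPM in SCe 1 against 37.0 and 24.2. Among footprints, 5 of 25 members were under 10% in SCe 1, against 1.13% of 10229 genes, and the median ratio was 0.476 against 0.922 over all genes. The enterocyte markers moved likewise, with summed RNA of 746 CPM in SCe 1 against 6382 and 7087, and summed footprints of 1487 CPM against 3470 and 4577. Their part in the P450 difference was not tested. Calls of members in the comparisons with SCe are therefore given with and without SCe 1. Results for the cell type markers and the other gene lists include SCe 1 throughout.

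**Figure D2:**
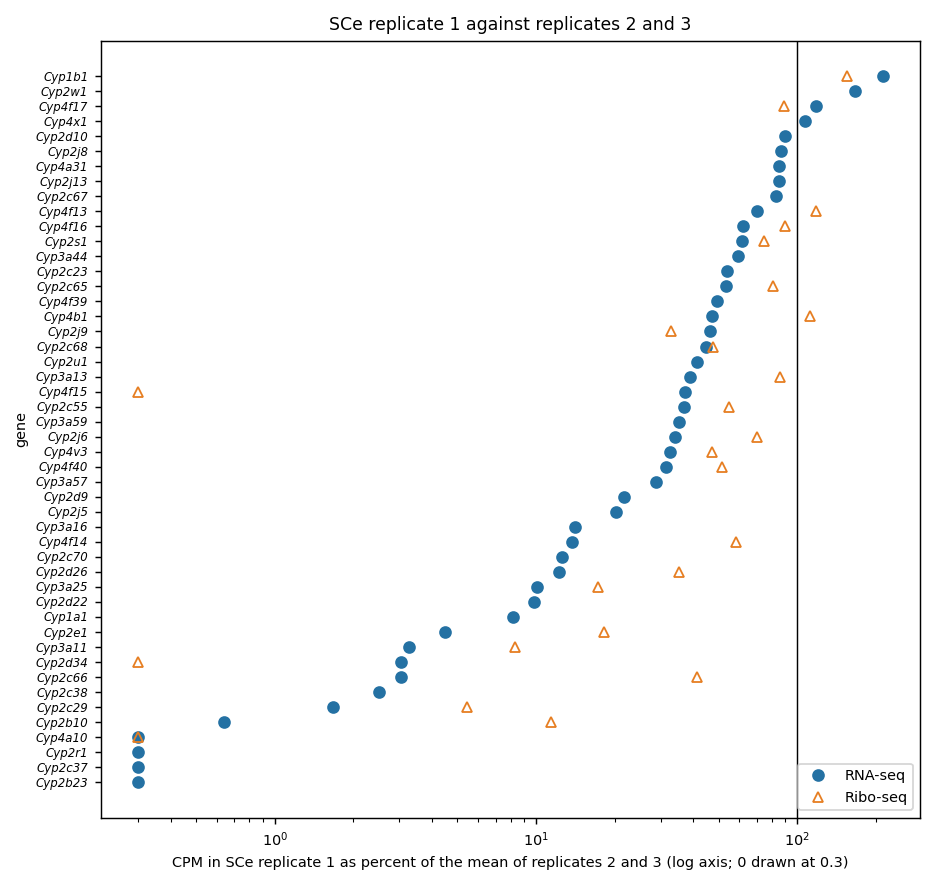
CPM in SCe culture 1 as a percent of the mean of SCe cultures 2 and 3 (x axis, log scale, 0 drawn at 0.3) for each member compared (y axis), with filled circles for RNA-seq and open triangles for Ribo-seq. Most members lie left of the line at 100%, with *Cyp2b10* RNA at 0.637% and *Cyp4a10* RNA at 0, and *Cyp1b1* lies right of it at 213% in RNA and 155% in footprints.

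Family 1 was followed in every group, as the genes of this family are induced by ligands of the aryl hydrocarbon receptor (AhR). *Cyp1b1*, on chromosome 17 from 79701537 to 79715061 (mm10, minus strand), oxidises estradiol and polycyclic hydrocarbons. Its RNA was at 0.718 and 0.605 CPM in the WT lines, at 15.1 and 12 CPM in *Rptor* fl/fl and at 65.2, 37.0 and 24.2 CPM in SCe. None of these groups overlapped. *Cyp1b1* rose 20.4-fold in *Rptor* fl/fl over WT (log2 4.35 ± 0.20 SE, adjusted p = 0.00516) and 64.1-fold in SCe over WT (log2 6.00 ± 0.59, adjusted p = 0.00267), and these comparisons share the WT lines. Between *Rptor* fl/fl and SCe the log2 fold change was −1.63 ± 0.45 (adjusted p = 0.0367), and without SCe culture 1 it was −1.18 ± 0.23 (adjusted p = 0.00726).

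The footprints of *Cyp1b1* did not follow its RNA in the organoids labelled *Rptor* fl/fl. They numbered 44, 14 and 81 in SCe and 0, 0 and 0 in the *Rptor* fl/fl-labelled libraries, which were the deeper ones with 5992941, 6379236 and 8257457 assigned footprints. Taking 3 counts over the group as the floor, *Cyp1b1* footprints were at least 129.6-fold lower in these libraries than in SCe (adjusted p = 0.00101). The RNA of the *Rptor* fl/fl lines was 32.3% of that of SCe, and the test of the difference between the footprint change and the RNA change, the change in translation efficiency (TE), gave an adjusted p of 0.0136. The organoids of the 2 assays were not matched, since those of the RNA-seq lacked RPL22.HA. Other genes also differed between the RNA and the footprint libraries that bear the same label. *Lgr5* was at 44.4 and 73.9 CPM in *Rptor* fl/fl RNA, at 206, 206 and 212 CPM in the footprints labelled *Rptor* fl/fl and at 215 and 197 CPM in WT RNA. The 10 Paneth cell markers summed to 896 and 1875 CPM, to between 6340 and 9373 CPM, and to 5048 and 6256 CPM in the same order. Whether the state of these cultures had a part in the *Cyp1b1* difference was not tested.

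In the mice *Cyp1b1* had 6.32, 10.0 and 12.2 CPM in WT and 15.5, 19.2 and 19.7 CPM in the animals labelled *Rptor* fl/fl, without overlap. The log2 fold change was 0.76 ± 0.20 SE (adjusted p = 0.0203). *Cyp1a1*, on chromosome 9 from 57687928 to 57703824 (plus strand), is the member most used as a readout of AhR activity. It had 0, 1 and 10 footprints in the WT mice and 40, 43 and 79 in the mice labelled *Rptor* fl/fl, which is 0, 0.457 and 1.83 CPM against 13.2, 13.1 and 9.98 CPM. The groups did not overlap, also when the WT mouse with 0 is set at the 3.79 CPM that its depth allows, and the log2 fold change was 3.18 ± 0.40 (adjusted p = 6.98e-05). In organoid RNA *Cyp1a1* did not separate the groups, with 4.63 and 6.35 CPM in WT, 1.22 and 7.50 in *Rptor* fl/fl and 0.702, 10.1 and 7.21 in SCe (adjusted p = 0.791 for *Rptor* fl/fl against WT). Its organoid footprints, 0 to 12 in each library, were below the filter.

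**Figure D3:**
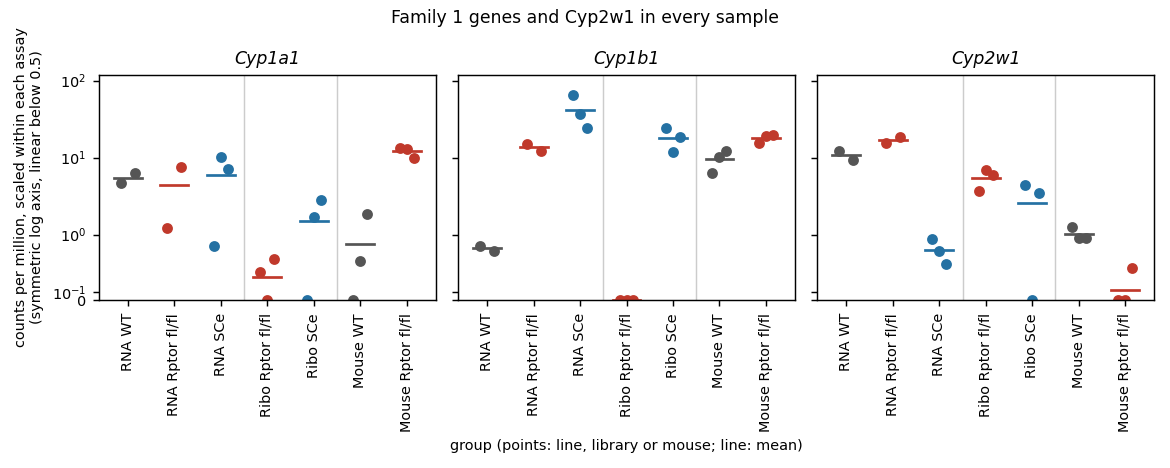
CPM (y axis, symmetric log scale, scaled within each assay) of *Cyp1a1*, *Cyp1b1* and *Cyp2w1* in the 7 groups, with a point for each line, library or mouse and a line at the group mean. *Cyp1b1* is low in WT RNA, 12 to 15.1 in *Rptor* fl/fl RNA, 24.2 to 65.2 in SCe RNA and 0 in the 3 organoid footprint libraries labelled *Rptor* fl/fl, and *Cyp1a1* is at 9.98 to 13.2 in the mice labelled *Rptor* fl/fl.

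The promoters of both family 1 genes are shown because both genes rose in the mice labelled *Rptor* fl/fl. They are the 250 bases before the RefSeq start (GRCm38.p6), at chr9:57697363-57697612 on the plus strand for *Cyp1a1*, which lies in an intron of the longer GENCODE gene model, and at chr17:79715062-79715311 on the minus strand for *Cyp1b1*, just outside the gene. Capitals mark GCGTG, the core of the AhR binding motif, or its reverse complement CACGC.
Cyp1a1 promoter: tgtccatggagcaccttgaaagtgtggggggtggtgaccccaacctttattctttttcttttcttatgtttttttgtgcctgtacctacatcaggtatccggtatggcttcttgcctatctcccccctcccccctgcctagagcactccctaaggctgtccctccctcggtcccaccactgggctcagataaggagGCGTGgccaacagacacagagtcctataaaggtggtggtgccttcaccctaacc
Cyp1b1 promoter: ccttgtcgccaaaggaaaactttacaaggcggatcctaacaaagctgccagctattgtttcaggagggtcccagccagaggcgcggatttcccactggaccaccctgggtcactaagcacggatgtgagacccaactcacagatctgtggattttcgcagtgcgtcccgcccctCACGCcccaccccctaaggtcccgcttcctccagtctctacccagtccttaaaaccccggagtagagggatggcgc
Each window held 1 such match, which lay 54 bases upstream of the start in *Cyp1a1* and 76 bases upstream in *Cyp1b1*. On either strand GCGTG occurred in 12 of the 51 promoters listed for 45 members, or 23.5%, and in 28.2% of all 32851 promoters of that length, so that a match is no mark of the P450 genes. TATAAA was found in 35.3% of the members' promoters and 12.4% of all, and of the nuclear receptor half-sites AGGTCA was found in 19.6% and 14.0% and AGTTCA in 7.84% and 11.8%. A match is a run of letters and not a measured binding site.

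In order to see how loss of *Rptor* changed these genes in organoids, the 2 *Rptor* fl/fl lines were compared with the 2 WT lines by RNA-seq. Beside the rise of *Cyp1b1*, members of subfamilies 2B and 2C fell. Of 47 members tested, 2 were higher (4.26%) and 8 lower (17.0%), against 11.6% higher and 11.0% lower of 14131 genes. The median log2 fold change was −0.28 over the members tested and −0.00 over all genes.

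*Cyp2b10* was at 435 and 442 CPM in WT and at 123 and 173 CPM in *Rptor* fl/fl, a fall to 33.8% (log2 −1.57 ± 0.18 SE, adjusted p = 0.0127). *Cyp2c29* went from 304 and 386 CPM to 50.6 and 89.9 CPM (log2 −2.30 ± 0.31, adjusted p = 0.0165). *Cyp2c55*, which oxidises arachidonic acid and is inducible through CAR and PXR, went from 287 and 181 CPM to 93.7 and 101 CPM (log2 −1.27 ± 0.23, adjusted p = 0.0250). The lines of the groups did not overlap in any of these genes. *Cyp2c66* went from 596 and 512 CPM to 241 and 343 CPM (log2 −0.92 ± 0.19, adjusted p = 0.0335), while its near copy *Cyp2c65*, at 687 and 548 CPM in WT and 408.5 and 520 CPM in *Rptor* fl/fl, did not pass the test. Among the 11 tested members of 2C, 4 fell, the last being *Cyp2c37*, from 54 and 90 reads to 4 and 11 (adjusted p = 0.0219). *Cyp2c37* shares 50.8% of its 31-base words with other genes.

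Of the other enzymes of family 2, *Cyp2d22*, of the drug-oxidising 2D subfamily, was at 4.29 and 2.98 CPM in WT and 0.968 and 1.54 CPM in *Rptor* fl/fl (log2 −1.53 ± 0.33 SE, adjusted p = 0.0355). *Cyp2r1*, the vitamin D 25-hydroxylase, fell from 30 and 37 reads to 10 and 9 (log2 −1.89 ± 0.37, adjusted p = 0.0296). In family 4, *Cyp4f16* fell from 55.2 and 68.2 CPM to 37.2 and 42.2 CPM (log2 −0.64 ± 0.13, adjusted p = 0.0323), with 51.8% of its 31-base words in other genes. In family 3, *Cyp3a57* rose from 6 and 14 reads to 68 and 130 (log2 3.18 ± 0.54, adjusted p = 0.0230). The neighbours *Cyp3a11*, at 160 and 225 CPM in WT and 56.6 and 124 CPM in *Rptor* fl/fl, and *Cyp3a25*, at 68.8 and 106 against 30.3 and 54.6, did not pass the test.

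The number of calls depended on the fit. With all 3 RNA-seq groups in 1 fit only *Cyp1b1* and *Cyp3a57* passed, with the technical libraries as separate replicates 22 members passed, and at an adjusted p of 0.01 only *Cyp1b1* passed. Leaving out WT line 1, WT line 2, *Rptor* fl/fl line 1 or *Rptor* fl/fl line 2 left 7, 6, 7 and 10 calls, of which 6, 5, 4 and 6 were among the 10, with *Cyp1b1*, *Cyp2b10* and *Cyp2c29* in each and *Cyp2r1* in none. The lone line of a group is then assumed to vary like those of the other group. Since the WT lines carried RPL22.HA and the *Rptor* fl/fl lines did not, the effects of these alleles cannot be told apart. The Paneth cell markers fell in the same lines, 8 of 10 passing the test, the stem cell markers likewise, 6 of 11, the goblet cell markers rose, 5 of 8, and of 17 enterocyte markers 3 fell. Their part in the P450 changes was not tested.

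In order to see how the stem cell medium acted on the same genes, SCe organoids were compared with WT organoids of the same genotype, using the same WT lines. Of 48 members tested, 5 were higher (10.4%) and 8 lower (16.7%), against 22.4% higher and 19.9% lower of 14925 genes, both shares of members being under those of all genes. The median log2 fold change was −0.58 over the members tested and 0.02 over all genes. Of the cell type markers, 6 of 8 for goblet cells and 9 of 10 for enteroendocrine cells fell, with medians of −3.07 and −4.11, and 3 of 3 tested for fibroblasts rose, while 2 of 17 enterocyte markers fell and 1 rose. Their part in the P450 changes was not tested.

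The gene with the strongest evidence of a fall was *Cyp2w1*, a P450 known from the fetal gut and from colon tumours. Its RNA was at 12.3 and 9.34 CPM in WT and at 0.870, 0.613 and 0.430 CPM in SCe (log2 −4.09 ± 0.34 SE, adjusted p = 0.00193). *Cyp2s1*, an epithelial P450 that acts on retinoids, went from 185 and 114 CPM to 17.9, 34.5 and 23.5 CPM (log2 −2.54 ± 0.34, adjusted p = 0.00553). *Cyp2d10* fell from 151 and 115 reads to 7, 9 and 22 (log2 −3.33 ± 0.46, adjusted p = 0.00565). In these genes SCe 1 was at 167%, 61.6% and 90.1% of the mean of the other cultures, in that order, and each kept the call without it.

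Of subfamily 2C, *Cyp2c65* went from 687 and 548 CPM to 137, 255 and 258 CPM (log2 −1.49 ± 0.31 SE, adjusted p = 0.0168). *Cyp2c68* went from 145 and 161 CPM to 27.9, 64.2 and 60.7 CPM (log2 −1.56 ± 0.37, adjusted p = 0.0245), and *Cyp2c38*, an epoxygenase, from 11.2 and 15.2 CPM to 0.0334, 1.19 and 1.48 CPM (log2 −3.78 ± 0.98, adjusted p = 0.0324). In these, SCe 1 was the lowest culture. *Cyp3a13* went from 238 and 260 CPM to 39.8, 103 and 101 CPM (log2 −1.59 ± 0.42, adjusted p = 0.0351), and *Cyp4f16* to 21.5, 32.8 and 36.5 CPM (log2 −1.0 ± 0.25, adjusted p = 0.0273).

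The members that rose with *Cyp1b1* were of families 3 and 4. *Cyp4b1*, which hydroxylates medium-chain fatty acids and activates lung toxicants, rose from 16.1 and 12.3 CPM to 25.5, 56.1 and 51.9 CPM (log2 1.67 ± 0.39 SE, adjusted p = 0.0241). *Cyp4f17* rose from 1.70 and 1.73 CPM to 5.05, 4.43 and 4.16 CPM (log2 1.42 ± 0.20, adjusted p = 0.00590). *Cyp3a59* rose from 14 and 27 reads to 27, 205 and 111 (log2 2.34 ± 0.69, adjusted p = 0.0461). *Cyp3a16*, a fetal liver form, had 1 and 0 reads in WT and 2, 23 and 34 in SCe (adjusted p = 0.0396). Of its 68.8 reads in all, most lay in SCe RNA. It passed the member limit only through the group where it is high, so its call is no support for a rise. Only *Cyp4f17* among them was as high in SCe 1 as in the other cultures, and *Cyp3a59* shares 55.9% of its 31-base words, mostly with *Cyp3a25*.

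Without SCe culture 1 the comparison gave 28 calls of 49 members, 11 higher and 17 lower, among which all 13 were kept. In all, 9530 genes were then called against 6309 with SCe 1, so the greater count is not particular to the members. Now *Cyp2c55* was higher, at 610 and 521 CPM against 287 and 181 in WT (log2 1.29 ± 0.22 SE, adjusted p = 0.00453), as were *Cyp2e1* (log2 3.95 ± 0.26, adjusted p = 0.000265) and *Cyp4a10*, from 8 and 4 reads in WT to 2005 and 2417 (log2 8.28 ± 0.28, adjusted p = 1e-04). *Cyp2b10* (log2 −1.72 ± 0.11), *Cyp2c29* (−3.09 ± 0.15) and *Cyp2c66* (−3.02 ± 0.13) were lower, with adjusted p-values of 0.000238, 0.000140 and 0.000132. Within 2C, then, *Cyp2c55* lay above WT in SCe 2 and 3 while *Cyp2c29*, *Cyp2c66* and *Cyp2c65* lay below it. Leaving out WT line 1 or WT line 2 left 4 calls each, *Cyp1b1*, *Cyp2d10*, *Cyp2s1* and *Cyp2w1*, and leaving out SCe 2 or SCe 3 left 8 and 7, in both cases without *Cyp2c38*, *Cyp3a13*, *Cyp3a16*, *Cyp3a59* and *Cyp4b1*. DESeq2 and the fit with separate technical libraries each called 20, and an adjusted p of 0.01 left 5.

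**Figure D4:**
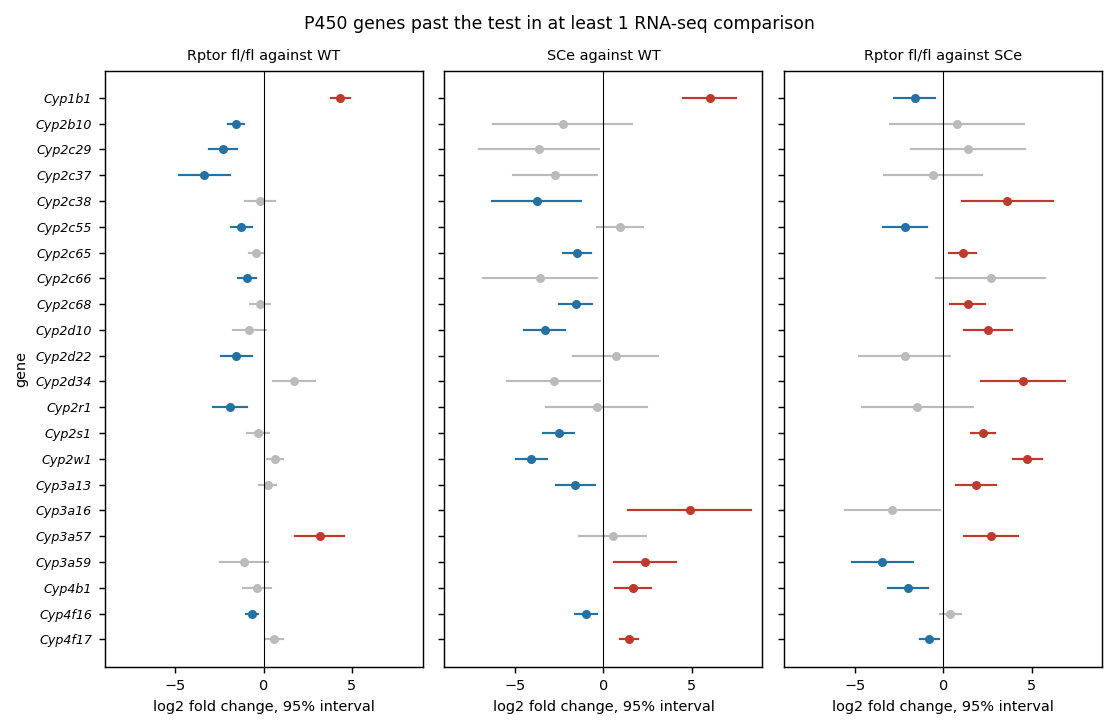
Log2 fold change with its 95% interval (x axis) of the 22 members past the test in at least 1 RNA-seq comparison (y axis), for *Rptor* fl/fl against WT, SCe against WT and *Rptor* fl/fl against SCe, red where higher, blue where lower and grey where not past the test. The comparisons share groups. *Cyp1b1* is higher in the first panels at 4.35 and 6.00, and *Cyp2w1* is at −4.09 in the middle panel and 4.76 in the right panel.

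The *Rptor* fl/fl lines and the SCe cultures, which differ in genotype and in medium at once, were also compared with each other, since the Ribo-seq holds only these. This reuses both groups. Of 49 members tested by RNA-seq, 9 were higher in *Rptor* fl/fl (18.4%) and 5 lower (10.2%), against 21.0% and 21.8% of 15103 genes, and the medians were 0.32 over the members tested and −0.01 over all genes. *Cyp2w1*, at 15.3 and 18.6 CPM in *Rptor* fl/fl, was 27.1-fold higher than in SCe (log2 4.76 ± 0.32 SE, adjusted p = 0.00115). *Cyp2s1*, at 123 and 118 CPM, was 4.74-fold higher (log2 2.25 ± 0.27, adjusted p = 0.00377), and *Cyp2d34*, at 13.4 and 22.7 CPM against 0.0334, 1.29 and 0.912, had a log2 fold change of 4.52 ± 0.94 (adjusted p = 0.0160). *Cyp2c38*, *Cyp2c65*, *Cyp2c68*, *Cyp2d10*, *Cyp3a13* and *Cyp3a57* were also higher, with log2 fold changes of 1.1 to 3.6. *Cyp2c55* was lower, at 93.7 and 101 CPM against 209, 610 and 521 (log2 −2.20 ± 0.49, adjusted p = 0.0198). *Cyp4b1*, at 8.01 and 13.9 CPM against 25.5, 56.1 and 51.9, was lower likewise (log2 −2.02 ± 0.44, adjusted p = 0.0187), and so were *Cyp3a59* (−3.45 ± 0.68, adjusted p = 0.0138), *Cyp4f17* (−0.79 ± 0.21, adjusted p = 0.0324) and *Cyp1b1*.

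Without SCe 1 there were 28 calls of 49 members, 16 higher and 12 lower, and the 14 were among them. In all, 9101 genes were then called against 6452 with SCe 1, so the greater count is not particular to the members. *Cyp2c66* (log2 2.12 ± 0.20 SE, adjusted p = 0.000630) then joined the members higher in *Rptor* fl/fl, and *Cyp2e1* (−3.96 ± 0.29, adjusted p = 0.000343) and *Cyp4a10* (−7.77 ± 0.35, adjusted p = 0.000142) the lower ones. With all cultures, goblet cell markers (7 of 8) and enteroendocrine markers (5 of 10) were also higher in *Rptor* fl/fl, and 5 of 11 stem cell markers were lower and 2 higher, and their part in the P450 differences was not tested. Leaving out *Rptor* fl/fl line 1 or line 2 left *Cyp2s1* and *Cyp2w1* alone, leaving out SCe 3 left 5 calls, and an adjusted p of 0.01 left 2.

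The footprints of the organoids labelled *Rptor* fl/fl were compared with those of SCe, 3 libraries each. *Cyp2b10*, *Cyp2c65*, *Cyp2c66*, *Cyp2d26*, *Cyp2s1*, *Cyp3a13*, *Cyp4f14* and *Cyp4f16* were higher in the *Rptor* fl/fl-labelled libraries, and *Cyp1b1*, *Cyp2c55*, *Cyp2e1*, *Cyp4b1* and *Cyp4f17* were lower. Of the 27 members past the count filter, 8 were higher (29.6%) and 5 lower (18.5%), against 6.63% higher and 9.84% lower of 10817 genes. The median log2 fold change was 0.74 over the members tested and −0.02 over all genes. The other 26 members, which include *Cyp1a1*, had too few footprints for the test.

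*Cyp2c66* had 180, 241 and 205 CPM in the *Rptor* fl/fl-labelled libraries and 10.3, 24.8 and 25.0 CPM in SCe (log2 3.37 ± 0.31 SE, adjusted p = 0.000677). *Cyp2c65* had 354, 492 and 447 CPM against 142, 136 and 216 (log2 1.38 ± 0.23, adjusted p = 0.00562), and *Cyp2b10* had 123, 118 and 106 CPM against 4.88, 49.6 and 36.1 (log2 1.96 ± 0.53, adjusted p = 0.0385). All libraries of one group lay above all of the other. *Cyp2s1*, at 111, 117 and 94.8 CPM against 24.4, 22.2 and 43.2, had a log2 fold change of 1.78 ± 0.26 (adjusted p = 0.00343). *Cyp2d26* (1.58 ± 0.38, adjusted p = 0.0238), *Cyp4f14* (1.48 ± 0.29, adjusted p = 0.0108), *Cyp3a13* (1.16 ± 0.23, adjusted p = 0.0109) and *Cyp4f16* (0.95 ± 0.18, adjusted p = 0.00832) were also higher. The summed enterocyte markers were at 8463 to 9056 CPM in the *Rptor* fl/fl-labelled libraries and at 1487 to 4577 CPM in SCe, and 7 of 17 were higher and 1 lower. The goblet cell markers, 7 of 8 being higher, and the enteroendocrine markers, 6 of 9, moved likewise, while 7 of 11 stem cell markers were lower and 1 higher. Their part in these differences was not tested.

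*Cyp2c55* again parted from its 2C neighbours, with 81.8, 99.7 and 85.6 CPM in the *Rptor* fl/fl-labelled libraries against 283, 434 and 601 in SCe (log2 −2.31 ± 0.27 SE, adjusted p = 0.00166). *Cyp2e1* had 5, 2 and 9 footprints against 17, 21 and 359, which is 0.831, 0.318 and 1.1 CPM against 9.22, 18.0 and 83.0 CPM (log2 −5.62 ± 0.89, adjusted p = 0.00472). *Cyp4b1* had 17.8, 19.9 and 15.8 CPM against 47.2, 24.8 and 59.7 (log2 −1.34 ± 0.30, adjusted p = 0.0175), and *Cyp4f17* had 4, 5 and 13 footprints against 10, 4 and 38 (log2 −2.56 ± 0.56, adjusted p = 0.0159). *Cyp2c70*, which makes muricholic acids in mouse liver, had 21, 20 and 16 footprints against 0, 1 and 0 but did not pass the count filter of the main test.

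Without SCe 1 there were 17 calls of 33 members, 11 higher and 6 lower, and all 13 were kept. The genes called in all were then 2684 against 1781 with SCe 1. *Cyp2c66* (log2 3.07 ± 0.19 SE), *Cyp2c65* (1.27 ± 0.22) and *Cyp2c55* (−2.55 ± 0.17) changed little. Leaving out 1 of the *Rptor* fl/fl-labelled libraries ended the calls of *Cyp2b10*, *Cyp2d26*, *Cyp4b1* and *Cyp4f17*, and of *Cyp4f16* when it was library 3, which left 8 calls. *Cyp2d26* was also lost without SCe 2 and *Cyp4f17* without SCe 3. An adjusted p of 0.01 left 7 calls, and an offset for effective length left 5, 2 higher and 3 lower, namely *Cyp1b1*, *Cyp2c55*, *Cyp2c65*, *Cyp2c66* and *Cyp2e1*.

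**Figure D5:**
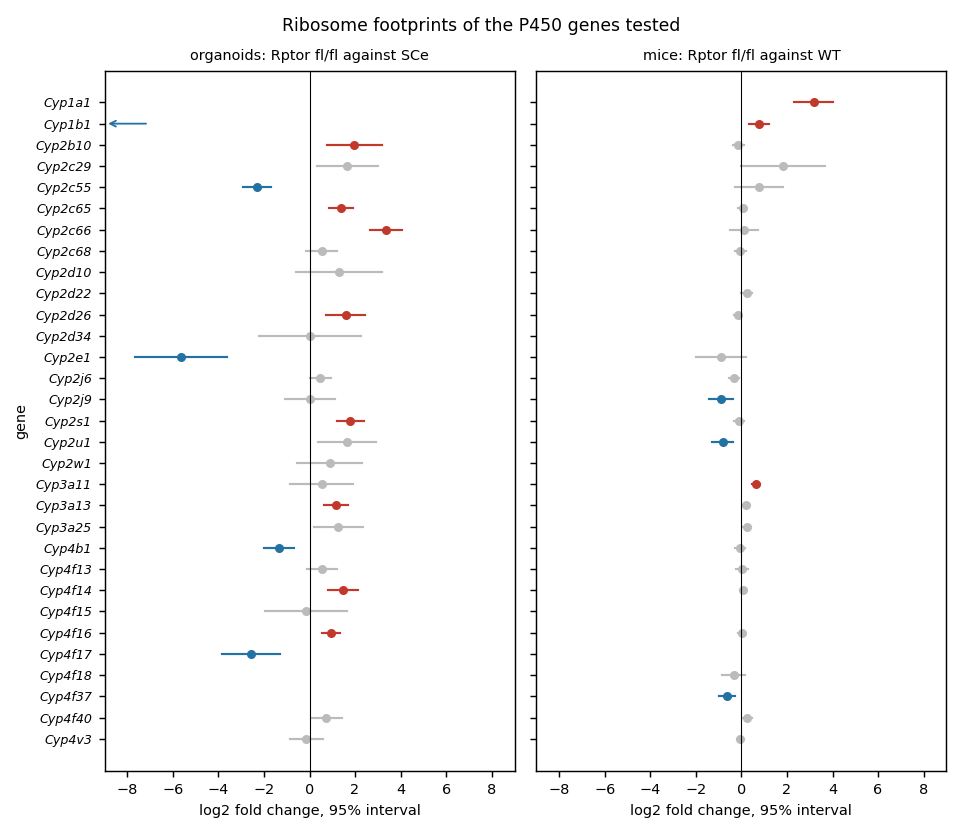
Log2 fold change of footprints with its 95% interval (x axis) for the members tested (y axis), in organoids labelled *Rptor* fl/fl against SCe on the left and in mice labelled *Rptor* fl/fl against WT on the right, red where higher, blue where lower and grey where not past the test. The arrow for *Cyp1b1* starts at the bound of 129.6-fold lower, *Cyp2c66* is at 3.37 on the left, and *Cyp1a1* is at 3.18 on the right, where most other members are near 0.

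Changes in translation efficiency were tested as the difference between the footprint change and the RNA change, using the libraries of the comparisons above again. The 2 members that passed, of 27 tested, were *Cyp1b1* and *Cyp2w1*, both lower in *Rptor* fl/fl than in SCe. This is 0% higher and 7.41% lower, against 1.12% higher and 1.81% lower of 10747 genes, and the medians were 0.14 over the members tested and −0.03 over all genes. At an unadjusted p under 0.05, 0 were higher and 4 lower, while 2178 of the 10747 genes passed in either direction. DESeq2 called 0 higher and 3 lower of 48 members, and 1371 genes in all. *Cyp2w1* was 27.1-fold higher in RNA, whereas its footprints, 22, 43 and 49 in the *Rptor* fl/fl-labelled libraries and 8, 0 and 15 in SCe, gave 3.66, 6.83 and 5.97 CPM against 4.34, 0 and 3.47 CPM, which overlap (log2 0.89 ± 0.63 SE, adjusted p = 0.365). The difference of the changes was −3.81 ± 0.75 (adjusted p = 0.0285). These calls are unstable. *Cyp2w1* was lost on leaving out any 1 library labelled *Rptor* fl/fl of either assay, SCe 3 of the Ribo-seq, or SCe 2 or SCe 3 of the RNA-seq, and *Cyp1b1* on leaving out *Rptor* fl/fl line 1 of the RNA-seq, so that 0 or 1 call was left in these fits. At an adjusted p of 0.01 no member passed.

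Without SCe 1 in both assays, an alternative chosen after seeing the data, 7 of 32 members passed. In all, 2072 genes passed in this fit against 315 in the main fit. The share over all genes was not counted, so the 7 are no result about the P450 genes. The additions were *Cyp2b10* (log2 1.38 ± 0.28 SE, adjusted p = 0.0107), *Cyp2c66* (1.00 ± 0.29, adjusted p = 0.0415), *Cyp2u1* (2.06 ± 0.64, adjusted p = 0.0498) and *Cyp4f16* (0.76 ± 0.18, adjusted p = 0.0189), all higher, and *Cyp2d34* (−4.61 ± 0.84, adjusted p = 0.00707), which was lower. Leaving out SCe 1 of the RNA-seq alone gave 4 of 27 members, with 705 genes called in all.

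In order to see whether the same genes changed in vivo, footprints of the 3 mice labelled *Rptor* fl/fl were compared with those of the 3 WT mice. Family 1 rose, as given above, and *Cyp3a11* rose with it, while the medians stayed near 0. Of the 26 members past the count filter, 3 were higher (11.5%) and 3 lower (11.5%), against 7.48% and 5.97% of 11515 genes, and the medians were 0.01 over the members tested and −0.02 over all genes. The remaining 27 members had too few footprints.

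*Cyp3a11* had 718, 773 and 724 CPM in WT and 1295, 1102 and 1045 CPM in the mice labelled *Rptor* fl/fl, 1.55 times as much (log2 0.63 ± 0.08 SE, adjusted p = 9.65e-05). *Cyp3a13*, at 1155, 1198 and 1205 CPM against 1490, 1390 and 1240, lay above WT in each mouse but did not pass the test (log2 0.21 ± 0.07, adjusted p = 0.0804), nor did *Cyp3a25*, at 351, 369 and 357 CPM against 481, 424 and 391 (log2 0.26 ± 0.08, adjusted p = 0.0519). The WT values lay below those of the other mice in all 3 tested members of 3A, but only *Cyp3a11* passed. The groups lay apart in 10 of the 26 members tested, and the share over all genes was not counted. The count of 10 is therefore no result about the P450 genes. *Cyp2j9* was at 13.9, 8.67 and 11.0 CPM in WT and 6.26, 5.48 and 5.56 CPM in the mice labelled *Rptor* fl/fl (log2 −0.89 ± 0.24, adjusted p = 0.0247). *Cyp2u1*, a fatty acid hydroxylase, was at 19.0, 25.6 and 14.6 CPM against 9.55, 10.7 and 11.1 (log2 −0.82 ± 0.22, adjusted p = 0.0220). *Cyp4f37* was at 32.9, 30.6 and 32.0 CPM against 14.8, 21.9 and 22.7 (log2 −0.64 ± 0.17, adjusted p = 0.0190), and its near copy *Cyp4f16* was at 163 to 174 CPM in WT and 164 to 175 CPM in the others (log2 0.01 ± 0.08).

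For the abundant *Cyp4f14* the log2 fold change was 0.07, with a 95% interval from −0.07 to 0.21, and for *Cyp4v3* it was −0.04, with an interval from −0.18 to 0.10. Mouse 1 labelled *Rptor* fl/fl stood apart in subfamily 2C, with 150 CPM of *Cyp2c29* against 12.8 and 8.46 in the other 2 and 12.3 to 15.9 in WT, and with 142 CPM of *Cyp2c55* against 30.1 and 28.5 and 32.1 to 43.0 in WT. It also had 45.8 CPM of *Lgr5* against 8.53 and 6.32. Without this mouse 9 of 28 members passed, 4 higher and 5 lower, and 1954 genes in all against 1548 with it. All 6 were kept, with *Cyp1a1* at 3.11 ± 0.43 and *Cyp3a11* at 0.54 ± 0.06, and *Cyp2b10* (−0.30 ± 0.08, adjusted p = 0.0177), *Cyp2j6* (−0.38 ± 0.10, adjusted p = 0.0123) and *Cyp4f40* (0.34 ± 0.09, adjusted p = 0.0146) were added. Leaving out WT mouse 2 left 3 calls, without *Cyp1b1*, *Cyp2u1* and *Cyp4f37*, and leaving out mouse 2 labelled *Rptor* fl/fl left 3, without *Cyp1b1*, *Cyp2j9* and *Cyp2u1*, which were also lost without mouse 3. *Cyp2j9* was lost without WT mouse 1 or WT mouse 3, and *Cyp4f37* without WT mouse 3. The offset for effective length left *Cyp1a1* and *Cyp3a11*, and DESeq2 called these and *Cyp3a13* and *Cyp3a25*, all higher. Of the cell type markers, 6 of 7 for fibroblasts were higher, their sum being 1258 to 1500 CPM against 1007 to 1035, and 4 of 8 for goblet cells were higher, at 30248 to 33825 CPM against 25569 to 25875. Of 17 enterocyte markers 6 were higher and 3 lower, and their sum was 65834 to 70699 CPM against 61194 to 62286, without overlap. Of 9 Paneth cell markers tested 5 were lower. Their part in the P450 changes was not tested.

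The partners and regulators of these enzymes were counted on lists chosen with earlier results of these data known. For reading their shares, the test called 11.6% of genes overall up and 11.0% down in *Rptor* fl/fl against WT RNA, 22.4% and 19.9% in SCe against WT, 6.63% and 9.84% in organoid footprints, and 7.48% and 5.97% in the mice. Of 7 genes listed as electron suppliers or other partners of P450 enzymes, 3 (42.9%) fell in *Rptor* fl/fl against WT RNA. They were *Cyb5a* (log2 −0.40 ± 0.09 SE), *Cyb5r3* (−0.53 ± 0.13) and *Pgrmc2* (−0.35 ± 0.08). In SCe against WT, 3 fell and 1 rose. Of 10 genes of heme supply and turnover, 2 fell in SCe against WT, among them *Alas1*, the first step of heme synthesis (−1.35 ± 0.19), and 4 rose, among them *Urod* (0.60 ± 0.09) and *Cpox* (0.56 ± 0.11), which act later in that synthesis. *Hmox1*, which degrades heme, rose in the mice labelled *Rptor* fl/fl (1.07 ± 0.27, adjusted p = 0.0152), alone among the 10.

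Of 8 genes of the AhR pathway, 3 (37.5%) rose in *Rptor* fl/fl against WT RNA, namely *Ahr* itself (log2 0.43 ± 0.07 SE, adjusted p = 0.0193), *Nfe2l2* (0.49 ± 0.08, adjusted p = 0.0201) and *Aldh3a1*, a target of AhR (2.79 ± 0.44, adjusted p = 0.0203). In SCe against WT, *Ahr* (−0.85 ± 0.13), *Nfe2l2* (−0.96 ± 0.11) and *Tiparp* (−0.31 ± 0.07) fell and *Ahrr*, the repressor, rose (0.83 ± 0.25, adjusted p = 0.0458). *Cyp1b1* was higher than in WT in both cultures, as given above. Whether the AhR pathway had a part in the *Cyp1b1* levels was not tested. In the mice the median log2 fold change over the 6 tested genes was 0.19, with *Ahr* at 0.21 ± 0.16 (adjusted p = 0.508) and *Tiparp* at 0.43 ± 0.16 (adjusted p = 0.0990).

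Of 17 xenobiotic and lipid receptors and their partners, 9 (52.9%) fell and 1 rose in SCe against WT, with a median log2 fold change of −0.83 against 0.02 over all genes. *Hnf4a* (−1.12 ± 0.10 SE), *Rxra*, the partner of CAR, PXR and PPARα (−1.21 ± 0.12), and *Nr1h3* (−1.71 ± 0.21) fell, and the coactivator *Ppargc1a* rose (1.91 ± 0.17). In *Rptor* fl/fl against WT, 3 fell, among them *Ppara* (−0.65 ± 0.09) and *Vdr* (−1.09 ± 0.16), and 2 rose. In organoid footprints 5 of 16 (31.2%) were higher in the *Rptor* fl/fl-labelled libraries than in SCe and 1 was lower, *Ppargc1a* (−2.20 ± 0.33, adjusted p = 0.00372). Higher were, among others, *Nr1i3*, which encodes CAR (3.06 ± 0.63, adjusted p = 0.0126), and *Ppara* (3.75 ± 0.33, adjusted p = 0.000510). In the mice *Nr1i3* was lower (−0.69 ± 0.18, adjusted p = 0.0175) and *Hnf4g* higher (0.49 ± 0.07, adjusted p = 0.000405), 4 rising and 1 falling of 16.

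The conjugating enzymes that act after P450 were counted by family. Of 21 tested *Gst* genes 8 (38.1%) fell in *Rptor* fl/fl against WT RNA, with *Gstm3* (log2 −1.49 ± 0.15 SE), *Gstm7* (−1.06 ± 0.12), *Gstm4* (−0.70 ± 0.10) and *Gstm1* (−0.91 ± 0.13) at the smallest adjusted p. In organoid footprints 7 of 20 were higher and 2 lower in the *Rptor* fl/fl-labelled libraries, led by *Gsta2* (4.51 ± 0.33). The *Ugt1* and *Ugt2* genes had 2 of 16 lower in *Rptor* fl/fl against WT RNA, 1 of 16 lower in SCe and 2 of 9 lower in the mice, where *Ugt2b5* stood at −0.95 ± 0.17. For the RNA these are 12.5% and 6.25%, near the share of all genes in the first comparison and under it in the second. Of 7 tested *Sult* genes 1 rose, *Sult1c2* (1.83 ± 0.14), and 1 fell in *Rptor* fl/fl against WT RNA. This was *Sult6b2*, which fell in *Rptor* fl/fl against WT RNA (−1.51 ± 0.26), in SCe (−3.77 ± 0.55) and in the mice (−1.32 ± 0.13). Of 10 transporters of drugs and peptides, *Abcc3* (0.88 ± 0.07), *Abcc4* (1.03 ± 0.13) and *Abcb1b* (3.12 ± 0.53) rose in *Rptor* fl/fl against WT RNA and *Slc15a1* fell (−1.14 ± 0.19).

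Among P450 genes outside families 1 to 4, of which 9 of 19 could be tested in SCe against WT, 7 rose and 1 fell, with a median of 3.07. *Cyp27a1*, the mitochondrial sterol 27-hydroxylase, rose in SCe (log2 3.28 ± 0.26 SE, adjusted p = 0.00171) and in *Rptor* fl/fl RNA (1.42 ± 0.26, adjusted p = 0.0254), and *Cyp27b1*, which activates vitamin D, rose in SCe (3.32 ± 0.35). In the mice labelled *Rptor* fl/fl, *Cyp26b1*, which degrades retinoic acid, rose (1.65 ± 0.24, adjusted p = 0.000305), as did *Cyp51* of sterol synthesis (0.50 ± 0.10). Of 20 target genes of PPAR, 3 rose and 3 fell in the mice, and the risers were *Pdk4* (1.58 ± 0.13), *Angptl4* (1.14 ± 0.14) and *Plin2* (0.34 ± 0.08). *Angptl4* fell in *Rptor* fl/fl organoid RNA (−2.61 ± 0.21, adjusted p = 0.00976) and rose in SCe against the same WT lines (1.58 ± 0.21). Of 11 tested genes of arachidonate, epoxide and retinoid metabolism 3 rose and 1 fell. *Ptgs1* (3.38 ± 0.34) and *Ptgs2* (3.40 ± 0.44), the cyclooxygenases, rose in *Rptor* fl/fl against WT RNA together with *Ephx1* (0.68 ± 0.08), and *Aldh1a1* fell (−0.60 ± 0.12).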

How the data were processed

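The authors trimmed adapters with cutadapt 1.18 and quantified reads with Salmon 1.1.0 against GENCODE vM21 (mm10), on whole protein-coding transcripts for RNA-seq and on transcripts trimmed of UTRs for Ribo-seq. The deposited estimated counts, which need not be whole, were summed per gene over its entries, and technical libraries were summed per line and rounded. Entries for 5′ regions in the organoid Ribo-seq were left out of the main tests. The deposited effective length was computed by Salmon and gave the length-scaled level and, as an alternative, the length offset. In Ribo-seq it assumes fragments far longer than footprints in the offset as well. The deposited TPM was not used. Each comparison was fitted over all genes past filterByExpr in edgeR 4.0.16 (R 4.3.3) with TMM factors, glmQLFit and glmQLFTest, and p-values were adjusted after Benjamini and Hochberg over all genes tested, with a threshold of 0.05. TE was the interaction of assay and group. The code was tested on simulated counts. Members and lists were chosen with earlier results of these data known. Named are all members past 0.05 in a comparison, the 5 highest in a group, family 1, members with at least 10 counts in every library of a group and at most 3 in another, and up to 4 genes a list. Single values of some list genes are not reported here. *Cyp4x1*, *Cyp4f18*, *Cyp4f37*, *Cyp2b23*, *Cyp2c70*, *Cyp3a57*, *Cyp4a10* and the members that passed only without a library were picked after their values were seen. Alternatives were DESeq2 1.42.0, RLE factors, no count filter, a length offset, 5′ entries added, technical libraries apart, all RNA-seq groups in 1 fit, a replicate block, a threshold of 0.01 and leaving out each sample. Floors set from a count of 0 cover counting error only, and the 95% intervals of fold changes come from the fitted spread between samples. Promoters are from RefSeq. Of the P450 symbols, 45 of 53 matched a promoter.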

Additional observations from a re-analysis of the deposited data

Results flagged for a closer look

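For 4 members, the lines or mice labelled *Rptor* fl/fl all lay on one side of WT in organoid RNA and all on the other side in mouse footprints. They were 4 of the 24 members tested in both (16.7%), against 12.1% of 10644 genes tested in both. The difference between these contrasts, which come from different assays, was not tested. *Cyp2d22* had a log2 fold change of −1.53 in organoid RNA and 0.24 in mouse footprints. *Cyp2u1* had 0.82 in organoid RNA and −0.82 in the mice. *Cyp3a11* had −1.09 and 0.63, and *Cyp3a25* −1.04 and 0.26.

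The organoid Ribo-seq also lists footprints on separate entries for 5′ regions, which were left out of the main tests and added to the gene's count in 1 alternative. Of the 36 members with such an entry, 10 had more of these footprints in every library labelled *Rptor* fl/fl than in any SCe library, where depth was lower. In 4 of these the groups also lay apart once scaled to library size, with at least 10 footprints in every library labelled *Rptor* fl/fl. Their lowest count in the *Rptor* fl/fl-labelled libraries was 55 for *Cyp3a13*, against 7, 6 and 18 in SCe. It was 59 for *Cyp4f14*, against 3, 3 and 0. It was 14 for *Cyp3a11*, against 1, 2 and 4, and 14 for *Cyp4f40*, against 0, 0 and 3. *Cyp1b1* went the other way, with 0, 0 and 0 in the *Rptor* fl/fl-labelled libraries and 7, 3 and 6 in SCe. The share of all genes lying apart in this way was not counted. The counts of 10 and 4 are therefore no result about the P450 genes. Of the 4, *Cyp3a13* and *Cyp4f14* were also higher in the main footprint test. A change particular to 5′ regions was not tested.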

How the results depend on the processing

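For the members called in a comparison, no change reversed its sign under any alternative run. Members named without a call were not followed. Over all alternatives, 529 values of the called members stayed past the threshold and 157 did not. Called under every alternative run were *Cyp1b1* in *Rptor* fl/fl against WT RNA, *Cyp1b1*, *Cyp2d10*, *Cyp2s1* and *Cyp2w1* in SCe against WT, *Cyp2s1* and *Cyp2w1* in *Rptor* fl/fl against SCe RNA, *Cyp1b1*, *Cyp2c55*, *Cyp2c65*, *Cyp2c66* and *Cyp2e1* in organoid footprints, and *Cyp1a1* and *Cyp3a11* in the mice. For TE no member was. The number of members called moved by over 1.5 times as follows, and the cause was not tested. For *Rptor* fl/fl against WT RNA, 10 calls became 22 with technical libraries apart, 2 with all RNA-seq groups in 1 fit and 1 at 0.01, and 6 to 10 on leaving out a line. For SCe against WT, 13 became 20 with DESeq2 or technical libraries apart, 5 at 0.01, and 4 to 28 on leaving out a sample. For *Rptor* fl/fl against SCe RNA, 14 became 2 at 0.01 and 2 to 28 on leaving out a sample. For organoid footprints, 13 became 5 with the length offset, 7 at 0.01 and 8 to 19 on leaving out a library, 19 being without SCe 3. For TE, 2 became 1 with the length offset, 0 at 0.01, 7 without SCe 1 in both assays and 0 to 4 on leaving out a sample. For the mice, 6 became 10 without the count filter, 2 with the length offset, 2 at 0.01 and 3 to 9 on leaving out a mouse. With entry lengths, the summed levels became 3356 and 2332 in WT and *Rptor* fl/fl RNA, 1313 and 838 in organoid footprints labelled *Rptor* fl/fl and SCe, and 4772 and 5061 in WT mice and mice labelled *Rptor* fl/fl.

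The labels number the samples without saying that equal numbers share an animal or day. With the replicate number as a block, 10 calls became 18 in *Rptor* fl/fl against WT RNA, 13 became 7 in SCe against WT and 2 became 0 in TE, while *Rptor* fl/fl against SCe RNA had 13, organoid footprints 13 and mice 6. Same-numbered samples correlated at 0.303, 0.144 to 0.165 and 0.197 to 0.250 in the RNA-seq comparisons, with 2 pairs each, and at no more than 0.034 in either Ribo-seq comparison. In a group of 2 lines the deviations from the group mean mirror each other, so the pairs are not separate values. Of the unlike-numbered RNA-seq pairs, SCe 3 correlated with WT 2 at 0.139 and with *Rptor* fl/fl 2 at 0.232, the others being negative. These values cannot decide whether equal numbers mark pairs. The shallowest libraries, 1 mouse and 2 SCe Ribo-seq libraries, limit what could be seen of the members below the filter.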
